A study of Ovis aries with 3 samples.

Results

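The miR-17-92 and miR-106b-25 clusters were followed across pooled small RNA libraries of sheep left ventricle, together with the related miR-106a-363 cluster. Members were all entries of the deposited merged count tables named miR-17, miR-18a, miR-18b, miR-19a, miR-19b, miR-20a, miR-20b, miR-92a, miR-92b, miR-106a, miR-106b, miR-93 or miR-25, whichever arm or species prefix they carried. This gave 23 of 636 entries. Entries with the same counts in every library were treated as 1 measure, which left 21 measures of 620 distinct entries. No entry was named miR-20b or miR-92b. Of the 21 measures, 13 averaged 10 or more counts per library and are described in full, and the other 8 never exceeded 12 counts in any library.

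All libraries were from Coopworth ewes, with 1 library per condition. Cont was a pool of 4 normal controls with no treatment. HF was a pool of 6 ewes with heart failure from rapid LV pacing, given as about 220 bpm for 13 days in the treatment label and as 225 bpm for 14 days in the sample description. HF-R was a pool of 4 ewes in recovery, given as 26 days after pacing stopped in the treatment label and as a further 14 days in the description. Rapid pacing is a model of heart failure without infarction or genetic lesion, and the tissue was whole ventricle, so fewer cells of a type and less of a miRNA per cell cannot be told apart. The animals of a group were combined before sequencing, so no spread between sheep was measured. Every interval below is a 95% exact interval that covers counting error only, and every ratio compares libraries. No test between conditions was made.

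Each of these clusters is transcribed as 1 primary RNA from which several hairpins are cut, and each hairpin yields a 5p and a 3p arm. A mature miRNA finds its mRNA targets mainly through its seed, bases 2 to 8, so members with the same seed are expected to share many targets. The clusters are best known from cell proliferation and heart and lung development in mice, where loss of miR-17-92 is lethal around birth. In the sheep RefSeq annotation (assembly ARS-UI_Ramb_v3.0), MIR106B and MIR25 lie inside MCM7 on chromosome 24, a gene for a replication helicase subunit.

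The seeds divide the main arms into 4 families, shown here with their listed sequences. Seeds are in capitals, and the sequences are written as DNA, as in the deposited files. The miR-17 family held miR-17, miR-20a, miR-106a, miR-93 and miR-106b.
miR-17-5p: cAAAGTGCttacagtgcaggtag
miR-20a-5p: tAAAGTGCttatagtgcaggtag
miR-106a-5p: aAAAGTGCttacagtgcaggtag
miR-93-5p: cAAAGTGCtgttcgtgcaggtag
miR-106b-5p: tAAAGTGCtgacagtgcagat
The miR-18 family had 1 base in the seed that set it apart from the miR-17 family.
miR-18a-5p: tAAGGTGCatctagtgcagatag
The miR-19 family had a seed of its own.
miR-19a-3p: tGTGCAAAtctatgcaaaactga
miR-19b-3p: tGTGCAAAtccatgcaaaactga
The last family joined miR-25 and miR-92a. The sheep entry oar-miR-25 starts 1 base later than miR-25-3p of the other species, so the same window of its listed sequence is shifted.
miR-25-3p: cATTGCACttgtctcggtctga
oar-miR-25: aTTGCACTtgtctcggtctga
miR-92a-3p: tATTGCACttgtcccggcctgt

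On the Oar v4.0 assembly of the files, the arms of miR-17-92 lay on the plus strand of chromosome 10 at chr10:66141666-66142422, a span of 757 nt. The order was miR-17, miR-18a, miR-19a, miR-20a, miR-19b and miR-92a. The arms of miR-106b-25 lay at chr24:36244133-36244602, a span of 470 nt, in the order miR-106b, miR-93 and miR-25. The arms of miR-106a, miR-18b and further copies of miR-19b and miR-92a lay at chrX:95476723-95477457. The copies of miR-19b and miR-92a on chromosomes 10 and X have the same sequence, so their counts cannot be divided between the clusters. MiR-20a-5p, which is listed at chromosome 3 in the merged table, was also placed on chromosome 10 in the tables of each library. Its count, too, cannot be divided between these loci.

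The distinct entries summed to 4710271 counts (Cont), 6152848 (HF) and 5988883 (HF-R). Levels are given as CPM, the count scaled to a common library total. A ratio was called when it was at least 1.5-fold in either direction and its interval left out 1. By that rule 22.3% of the 350 distinct entries that averaged 10 or more counts were called higher in HF than in Cont, and 8.0% lower. The median entry had an HF/Cont ratio of 1.12, so each member's ratio is also given over that of the median entry.

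The values called higher in HF were mainly those of the miR-17 family and of miR-19b-3p. All 5 measures of the miR-17 family that averaged 10 or more counts were called higher in HF than in Cont, with ratios from 1.57 to 2.01. The highest of these is a partial-match entry whose distinct reads mostly lie nearest to miR-20a-5p. Under other library scalings, edgeR's TMM factors or DESeq2's size factors, 3 of the 5 were called. These were miR-20a-5p, miR-93-5p and that same partial-match entry, which is not a measurement apart from miR-20a-5p. Of all entries, 16.3% were called higher with TMM and 14.3% with size factors. MiR-19b-3p was called higher at 1.55, a ratio that could not be told from that of oar-miR-17-5p. Oar-miR-25 and miR-92a-3p, which count partial matches, were not called. The partial-match miR-25-3p entry was called higher at 1.57 (1.04 to 2.43). MiR-18a-5p (1.62) and miR-19a-3p (1.36) had few counts and intervals that held 1. In HF-R no member was called against Cont.

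Oar-miR-25 was by far the most abundant member, and miR-25 is known in mouse heart for acting on the calcium pump SERCA2a. Its level was 4951 CPM (Cont), 5486 CPM (HF) and 4800 CPM (HF-R). HF was the highest library, by a small step. Between HF and Cont the ratio was 1.11 (1.09 to 1.13), or 0.992 over the median entry. The HF-R/Cont ratio was 0.970 (0.953 to 0.986). This 1 entry held 76.5% (Cont), 69.9% (HF) and 75.5% (HF-R) of all member counts. Its count is one of partial (70 to 99%) matches, and its reads are not listed in the tables used here. Of its 21 bases, 18 are the same in miR-92a-3p (85.7%), and the whole of it lies within miR-25-3p. How many of its reads come from either of these was not tested.

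MiR-20a-5p, a miR-17-92 arm, was the most abundant perfectly matched member. The counts were 1596 (Cont), 3958 (HF) and 2365 (HF-R), equal to 339, 643 and 395 CPM. HF stood well above the other libraries, and HF-R lay slightly above Cont. Its HF/Cont ratio was 1.90 (1.79 to 2.01), or 1.70 over the median entry. The HF-R/Cont ratio was 1.17 (1.09 to 1.24), which did not reach 1.5-fold.

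MiR-93-5p has the same seed but belongs to miR-106b-25. It reached 699 counts (Cont), 1746 (HF) and 1056 (HF-R), equal to 148, 284 and 176 CPM. This was the same order of libraries as for miR-20a-5p. Its HF/Cont ratio was 1.91 (1.75 to 2.09), or 1.71 over the median entry, and its HF-R/Cont ratio was 1.19 (1.08 to 1.31). The HF/Cont ratio of miR-20a-5p was 0.993 times that of miR-93-5p (interval 0.892 to 1.10). Such a ratio of ratios does not depend on how the libraries are scaled.

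Oar-miR-17-5p, the sheep entry for the first arm of miR-17-92, reached 1011 counts (Cont), 2123 (HF) and 1280 (HF-R). The level was 215 CPM in Cont and 345 CPM in HF, and HF-R lay at the level of Cont. In HF/Cont the ratio was 1.61 (1.49 to 1.73), or 1.44 over the median entry. The HF-R/Cont ratio was 0.996 (0.916 to 1.08). MiR-20a-5p exceeded this HF/Cont ratio by a factor of 1.18 (1.07 to 1.30).

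MiR-106b-5p (hsa-/mmu-/rno-/oar-miR-106b-5p), the first arm of miR-106b-25, reached 386 counts (Cont), 791 (HF) and 416 (HF-R), equal to 81.9, 129 and 69.5 CPM. HF was high, and HF-R was the lowest library. The HF/Cont ratio was 1.57 (1.39 to 1.78), or 1.40 over the median entry, and the HF-R/Cont ratio was 0.848 (0.736 to 0.976). Against miR-106b-5p, miR-93-5p from the same cluster was higher by a factor of 1.22 (1.05 to 1.42) in HF/Cont and of 1.40 (1.18 to 1.66) in HF-R/Cont.

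MiR-19b-3p (hsa-/mmu-/rno-/oar-miR-19b-3p) belongs to the miR-19 family. Its counts were 1276 (Cont), 2579 (HF) and 1653 (HF-R), equal to 271, 419 and 276 CPM. HF was high, and Cont and HF-R differed by less than counting error. An HF/Cont ratio of 1.55 (1.45 to 1.66) was found, or 1.39 over the median entry, and the HF-R/Cont ratio was 1.02 (0.947 to 1.10). Oar-miR-17-5p could not be told from it in HF/Cont, with a ratio between them of 1.04 (0.938 to 1.15).

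MiR-19a-3p, which differs from miR-19b-3p by C11T (miR-19b-3p base first, positions from the 5′ end), had only partial matches. These numbered 54 (Cont), 96 (HF) and 70 (HF-R). HF was again the highest library, but the HF/Cont ratio of 1.36 (0.965 to 1.94) was not called. Among its reads the whole of miR-19a-3p did not occur.

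MiR-18a-5p and miR-18b-5p shared 1 measure of 17 (Cont), 36 (HF) and 25 (HF-R) counts. Its HF/Cont ratio was 1.62, but at this depth its interval of 0.887 to 3.08 held 1. They differ by A20T (miR-18a-5p base first). In the perfect-match tables the counts stood under miR-18a-5p, while miR-18b-5p had 1 count in HF and none in the other libraries.

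MiR-92a-3p (human entry hsa-miR-92a-3p), the last arm of miR-17-92, is known in mouse vessels for holding back vessel growth. Its counts are partial matches alone, 852 (Cont), 1087 (HF) and 934 (HF-R), equal to 181, 177 and 156 CPM. None of its listed reads held the whole sequence, so these values are not a reading of intact miR-92a-3p. HF did not stand out here, and HF-R was the lowest library. Its HF/Cont ratio was 0.977 (0.892 to 1.07) and the HF-R/Cont ratio was 0.862 (0.785 to 0.947). The mouse and rat entry, which is 1 base shorter, had 840, 1067 and 925 counts. It is not a separate measurement, since 96.5% to 97.2% of the distinct reads listed under the human entry were listed under it as well. Between miR-20a-5p, counted by perfect matches, and miR-92a-3p, counted by partial ones, the HF/Cont ratios differed by a factor of 1.94 (1.74 to 2.17).

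**Figure D1:**
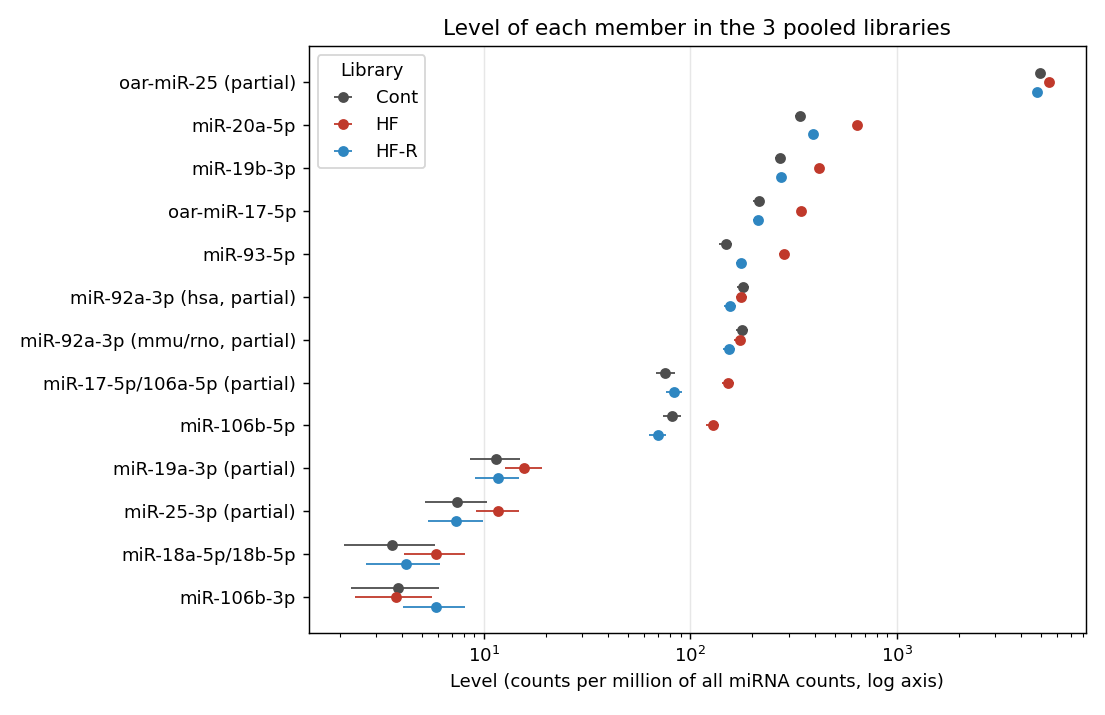
Level of the 13 member measures in the Cont, HF and HF-R libraries, in CPM on a log axis, with bars for 95% counting intervals. Oar-miR-25 lies at 4800 to 5486 CPM, and the miR-20a-5p point of HF at 643 CPM stands to the right of Cont at 339 and HF-R at 395.

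Counted over all members, 7 of the 13 measures (53.8%) were called higher in HF than in Cont, beside the 22.3% of all entries. None was called lower, beside 8.0%. These 7 were miR-20a-5p, miR-93-5p, miR-19b-3p, oar-miR-17-5p, miR-106b-5p and 2 partial-match entries described below, miR-17-5p/miR-106a-5p and miR-25-3p. Leaving out measures that share their listed reads with another left 6 of 11 called (54.5%). The median HF/Cont ratio of the 13 was 1.57, against 1.12 over all 350 entries. Over the 7 perfectly matched measures alone, 5 were called. No share of all perfectly matched entries is given to set beside this. The count rested on the scaling. With edgeR's TMM factors or DESeq2's size factors, 3 of 13 (23.1%) were called, namely miR-20a-5p, miR-93-5p and the partial miR-17-5p/miR-106a-5p entry. The last of these is not a measurement apart from miR-20a-5p. The share of all entries called higher was then 16.3% with TMM and 14.3% with size factors, so that the share of members lay nearer to that of all entries. These scalings shifted the median log2 ratio of all entries by -0.16 and -0.22, and the split over all entries went from 78 higher and 28 lower to 57 and 49 with TMM and to 50 and 53 with size factors.

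**Figure D2:**
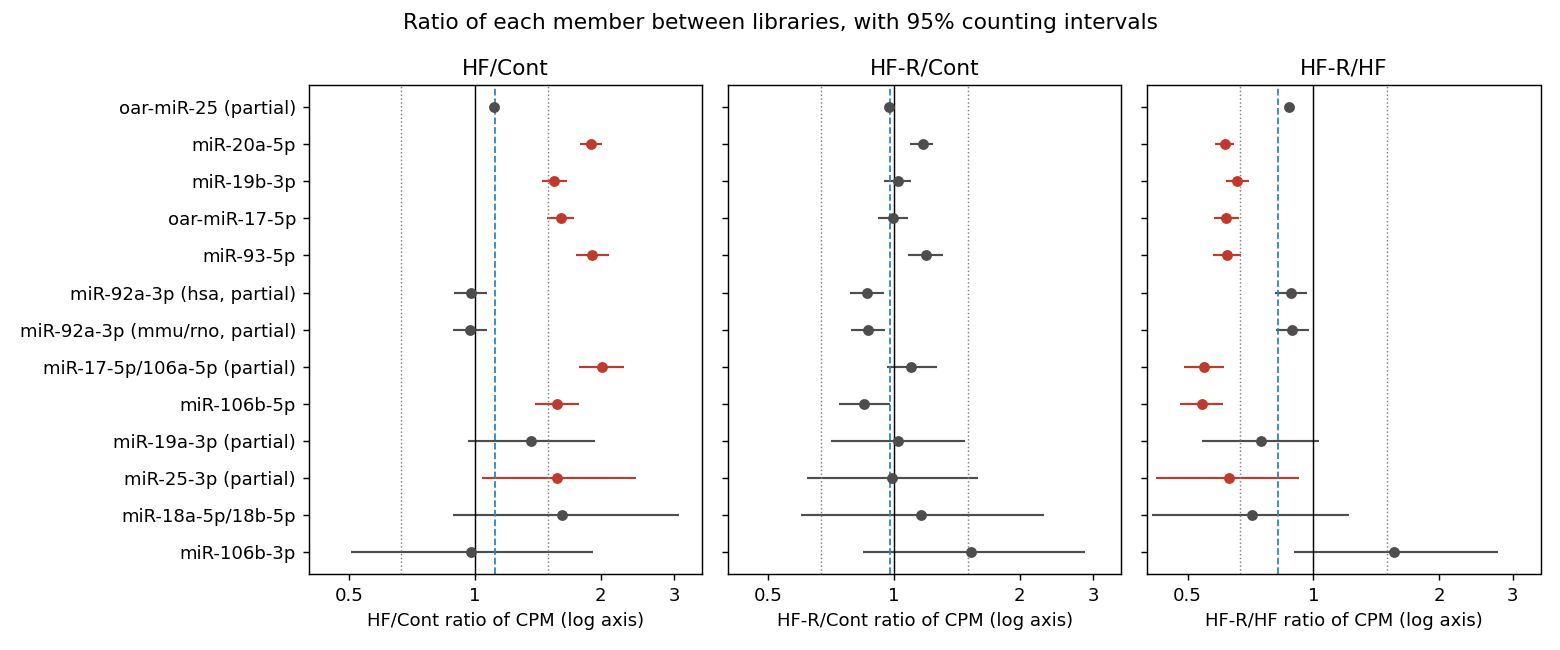
Ratio of CPM of each of the 13 measures for HF/Cont, HF-R/Cont and HF-R/HF on log axes, with 95% counting intervals; red marks called ratios, dotted lines mark 1.5-fold, and the dashed line is the median of all 350 entries. In HF/Cont the called members lie between 1.55 and 2.01, and in HF-R/Cont none is red.

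**Figure D3:**
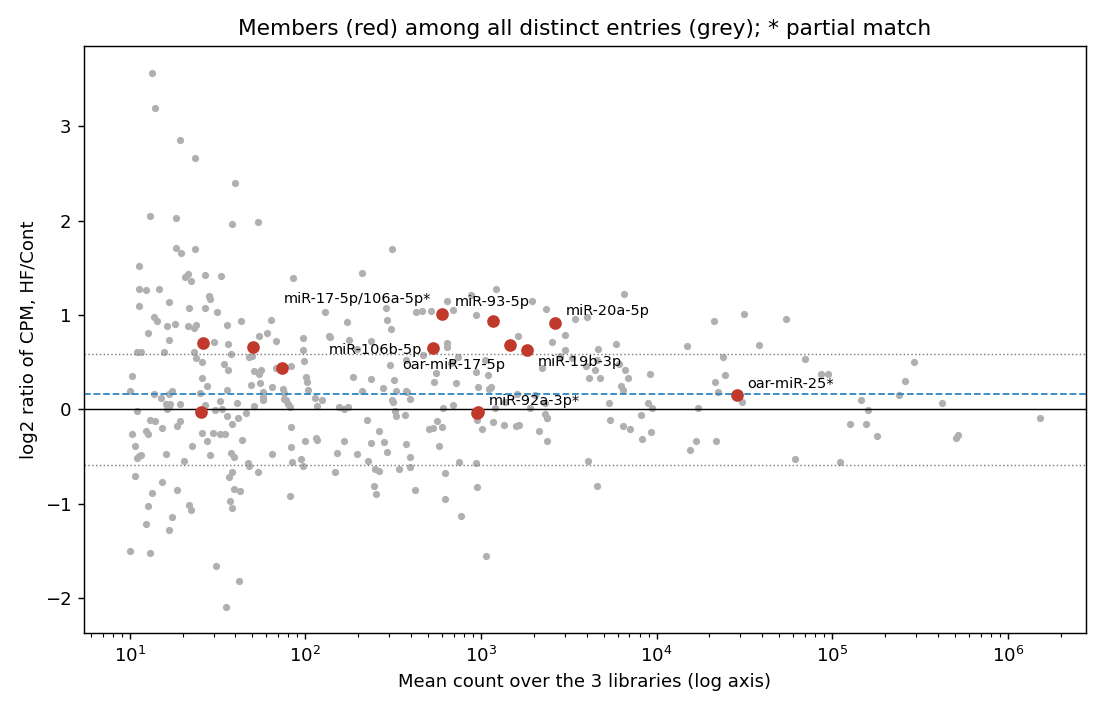
Log2 HF/Cont ratio of CPM against the mean count over the libraries (log axis) for the 350 distinct entries, with members in red, dotted lines at 1.5-fold and a dashed line at the median log2 ratio of 0.16. The labelled miR-17 family members lie from 0.65 to 1.01, within the range that other entries of like counts cover.

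**Figure D4:**
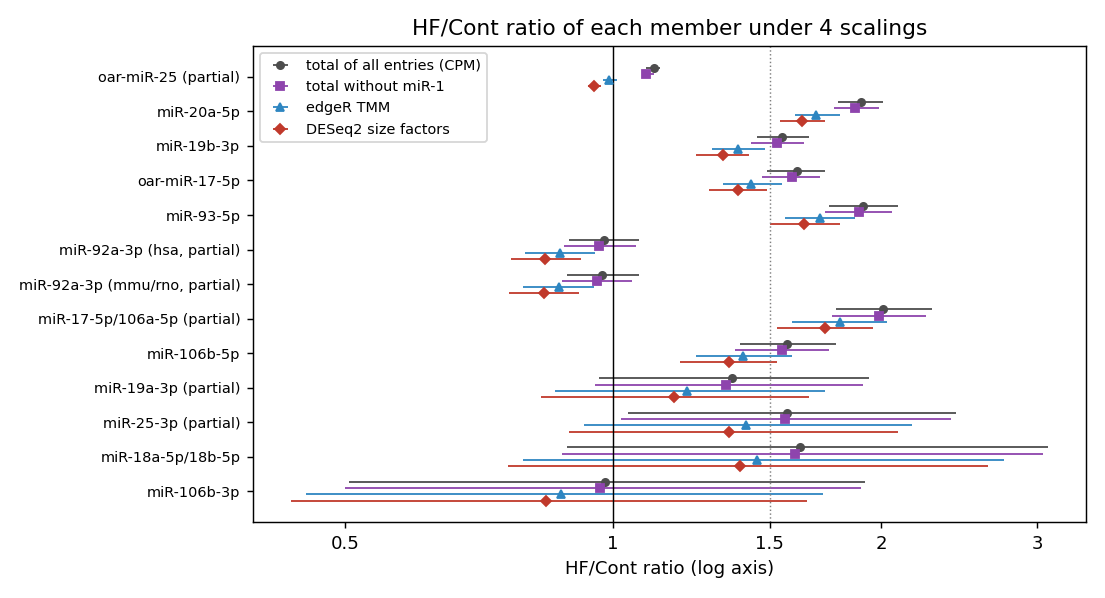
HF/Cont ratio of each of the 13 measures under 4 scalings of the libraries, on a log axis with 95% counting intervals; the dotted line marks 1.5-fold. MiR-20a-5p and miR-93-5p stay to the right of 1.5-fold under each scaling, while miR-19b-3p, oar-miR-17-5p and miR-106b-5p cross it under TMM and size factors.

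The contrast between the entries of these families did not depend on the scaling, but family and match class cannot be told apart in it. The miR-17 family and miR-19b-3p entries compared here count perfect matches, while oar-miR-25 and miR-92a-3p count partial matches. Partial matches alone had an HF/Cont ratio of 1.24 for miR-93-5p and 1.76 for miR-20a-5p. Relative to oar-miR-25, the HF/Cont ratio was 1.71 times as high for miR-20a-5p (1.61 to 1.82), 1.73 times for miR-93-5p (1.58 to 1.89) and 1.45 times for oar-miR-17-5p (1.34 to 1.57). It was 1.42 times as high for miR-106b-5p (1.25 to 1.60) and 1.40 times for miR-19b-3p (1.30 to 1.5). For miR-92a-3p it was 0.881 times (0.804 to 0.967). The division ran within miR-106b-25, where miR-93 and miR-25 are neighbours on chromosome 24. Summed over oar-miR-17-5p, miR-20a-5p, miR-93-5p and miR-106b-5p, the miR-17 family took 0.0784% (Cont), 0.140% (HF) and 0.0854% (HF-R) of all counts.

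Entries with the seed of miR-25 and miR-92a did not share one pattern either, but they differed in match class. MiR-32-5p, the 1 entry outside the clusters with the seed of a main arm, reached 174 counts (Cont), 440 (HF) and 260 (HF-R). HF was its highest library. Its HF/Cont ratio of 1.94 (1.62 to 2.32) was called, and it was 1.98 times that of miR-92a-3p (1.62 to 2.43). MiR-32-5p is a perfect-match entry and miR-92a-3p a partial-match one, so seed-mates are not compared on like terms.

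Between HF and HF-R, the HF library is the same one as in HF/Cont, so a high HF value enters both comparisons. The same 7 measures were called lower in HF-R than in HF (53.8%), beside 22.6% of all entries, and none was called higher, beside 5.14%. The ratios were 0.614 (0.583 to 0.646) for miR-20a-5p, 0.621 (0.575 to 0.671) for miR-93-5p and 0.619 (0.577 to 0.664) for oar-miR-17-5p. MiR-106b-5p had the lowest ratio, 0.540 (0.479 to 0.609), and miR-19b-3p had 0.658 (0.619 to 0.701). Oar-miR-25 (0.875) and miR-92a-3p (0.883) were not called. The median entry had a ratio of 0.822, and under TMM 2 of the members were called lower, miR-106b-5p and the partial miR-17-5p/miR-106a-5p entry, while miR-106b-3p was called higher. That was 15.4% of members lower and 7.69% higher, beside 13.7% and 8.0% of all entries, so under this scaling the shares of members were near those of all entries.

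In HF-R against Cont, 0 of 13 measures were called in either direction, beside 4.86% of all entries called higher and 11.4% lower. The member ratios ran from 0.848 for miR-106b-5p to 1.53 for miR-106b-3p, with a median of 1.02. The intervals of miR-20a-5p and miR-93-5p lay above 1, and those of miR-106b-5p, oar-miR-25 and both miR-92a-3p entries below 1, all within 1.5-fold.

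Partial-match entries were examined through the distinct reads that the tables of each library list under them, without counts per read. The entry miR-17-5p of the human, mouse and rat sets, identical in counts to miR-106a-5p, reached 357 counts (Cont), 938 (HF) and 500 (HF-R), with an HF/Cont ratio of 2.01 (1.78 to 2.28). HF was high, and HF-R lay near Cont. Under it stood 53 (Cont), 69 (HF) and 61 (HF-R) distinct reads, and every one of these was also listed under miR-20a-5p. By edit distance, 49, 60 and 58 of them were nearest to miR-20a-5p alone, and 1, 3 and 1 were nearest to miR-17-5p alone. MiR-20a-5p differs from miR-17-5p by C1T and C12T (miR-17-5p base first). The sequences below show this, with capitals at each base that differs from miR-17-5p. The last 3 are reads listed under miR-17-5p in every library.
miR-17-5p: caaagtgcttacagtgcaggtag
miR-20a-5p: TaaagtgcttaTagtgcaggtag
read 1: TaaagAgcttaTagtgcaggtag
read 2: TaaagtgcAtaTagtgcaggtag
read 3: TaTagtgcttaTagtgcaggtag
Of the 22 reads of full length listed under miR-17-5p in all libraries, 20 had fewer differences from miR-20a-5p than from miR-17-5p. The value of this entry is therefore not a measurement of miR-17-5p apart from miR-20a-5p. The perfectly matched oar-miR-17-5p entry was counted separately.

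**Figure D5:**
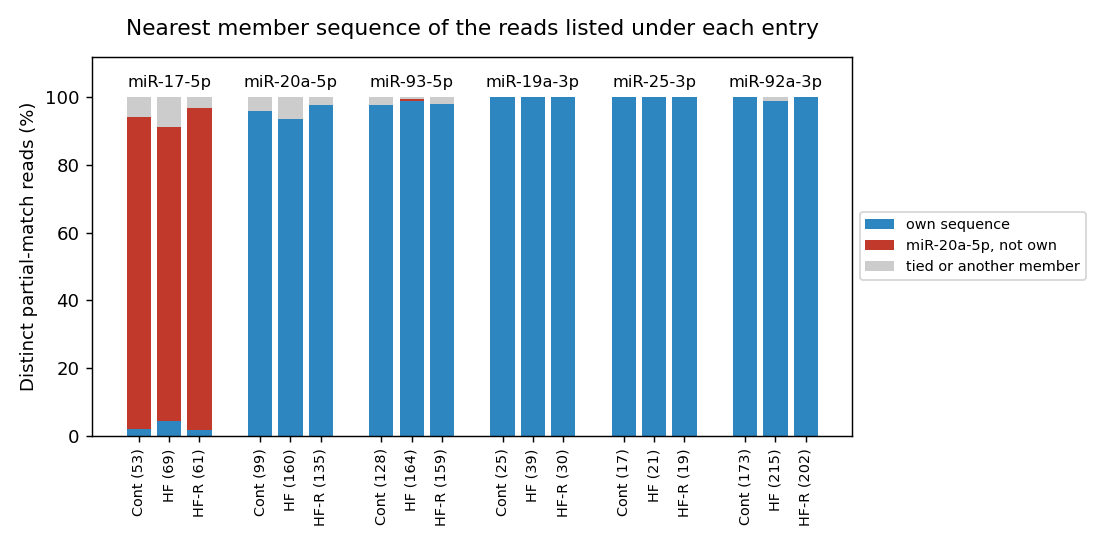
Share of the distinct partial-match reads listed under 6 entries (y axis, percent) by the member sequence they lie nearest to, for each library, with the number of reads in brackets. Under miR-17-5p 87.0% to 95.1% of the reads lie nearest to miR-20a-5p, while the other 5 entries hold reads nearest to their own sequence.

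The miR-25-3p entry of the other species reached 35 counts (Cont), 72 (HF) and 44 (HF-R), with an HF/Cont ratio of 1.57 (1.04 to 2.43). HF was high, unlike for oar-miR-25. Its listed reads numbered 17 (Cont), 21 (HF) and 19 (HF-R), and 17, 20 and 19 of them carried a base other than T at position 12, as T12A, T12C or T12G. None held the whole of miR-25-3p. Reads that occurred in every library are shown with capitals at the base that differs from miR-25-3p.
read 1: cattgcacttgActcggtctga
read 2: cattgcacttgCctcggtctga
read 3: cattgcacttgGctcggtctga
The entry thus holds almost only reads that differ from miR-25-3p at position 12, some with a further change, and its ratio is not a second reading of miR-25 as a whole. No listed read of miR-92a-3p held its first 18 bases unbroken either, among 173 (Cont), 215 (HF) and 202 (HF-R) reads. The ratio of that entry, too, is not a reading of intact miR-92a-3p.

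For perfectly matched entries the merged tables give the perfect matches, and their partial matches stand under these names in the tables of each library alone, although a read can also be listed under a partial-match entry that the merged tables count. MiR-20a-5p had 582 (Cont), 1341 (HF) and 826 (HF-R) partial matches, 26.7%, 25.3% and 25.9% of its matches of both kinds. MiR-93-5p had 540, 875 and 683, which was 43.6%, 33.4% and 39.3%. Over the human entries with at least 100 perfect matches, the median partial share was 57.2% (Cont), 55.0% (HF) and 57.2% (HF-R). For miR-93-5p the partial matches had an HF/Cont ratio of 1.24 (1.11 to 1.38), lower than that of the perfect matches by a factor of 1.54 (1.34 to 1.77). For miR-20a-5p that factor was 1.08 (0.959 to 1.21). With both kinds added, the HF/Cont ratio was 1.86 (1.77 to 1.96) for miR-20a-5p and 1.62 (1.51 to 1.73) for miR-93-5p.

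Among the perfect matches the less abundant arms were rare. MiR-106b-3p had 18 (Cont), 23 (HF) and 35 (HF-R) perfect matches. HF-R was its highest library, and none of its ratios was called. As a share of both arms of miR-106b, this was 4.46% for Cont (2.66 to 6.95), 2.83% for HF (1.80 to 4.21) and 7.76% for HF-R (5.46 to 10.6), and the intervals of HF and HF-R did not overlap. The partial matches of miR-106b-3p were far more frequent, at 529, 765 and 679. With these added its HF-R/HF ratio was 0.931 (0.840 to 1.03) instead of 1.56 (0.898 to 2.77). It then had 547 (Cont), 788 (HF) and 714 (HF-R) matches, beside 386, 791 and 416 perfect matches of miR-106b-5p. No partial matches are listed for miR-106b-5p, so the arm shares hold for perfect matches alone. MiR-17-3p took 0.394% (Cont), 0.282% (HF) and 0.156% (HF-R) of the miR-17 arms, from 4, 6 and 2 perfect matches. Its partial matches numbered 33, 61 and 43. The miR-25-5p arm had at most 12 counts in any library, and the human miR-18a-3p entry had no count in Cont, where 3 counts would be 0.637 CPM.

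Markers of the cell types in the ventricle were set beside these values. The 14 cardiomyocyte entries, which include miR-1 and miR-499a, summed to 323676 (Cont), 319879 (HF) and 388624 (HF-R) CPM. Their HF/Cont ratios went both ways, with 0.939 (0.936 to 0.941) for miR-1-3p and 1.40 (1.35 to 1.45) for miR-208b-3p. The 5 erythroid entries summed to 3473, 3448 and 2899 CPM, and most of this was miR-486-5p, with an HF/Cont ratio of 1.01 (0.986 to 1.03). The other erythroid entries went both ways, from 0.766 (0.686 to 0.855) for miR-451-5p to 2.71 (1.36 to 5.88) for hsa-miR-144-5p. The 5 leukocyte entries summed to 565, 454 and 489 CPM, and the 3 fibroblast entries to 933, 1245 and 1398 CPM. The endothelial marker miR-126 had no entry in these tables. The leukocyte entries went both ways too, with HF/Cont ratios of 0.566 (0.516 to 0.622) for miR-150-5p and 1.18 (1.07 to 1.30) for hsa-miR-155-5p. The erythroid and leukocyte sums were not higher in HF, although single entries were. The fibroblast sum was higher in HF than in Cont and highest in HF-R. The part of cell composition in the member ratios was not tested.

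Among 179 other entries that averaged 100 or more counts, those whose log2 HF/Cont and HF-R/Cont ratios lay nearest to the member medians of 0.65 and 0.03 were miR-27b-5p, miR-140-3p, oar-miR-29a, miR-30c-5p and oar-miR-125b. MiR-140-3p, for example, reached 1726 counts (Cont), 3680 (HF) and 2260 (HF-R), with ratios of 1.63 and 1.03. Oar-miR-125b had 50079, 94445 and 66287 counts, with ratios of 1.44 and 1.04. High values in HF with a level near Cont in HF-R were thus found outside the clusters as well.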

How the data were processed

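Small RNA from left ventricle was sequenced as 1 pooled library each for Cont, HF and HF-R. Per the study's methods, sequences of 15 to 30 nt were kept, compared with miRBase release 21 by Blast and placed on the sheep genome Oar v4.0 by Bowtie (versions not given in the sources used here). The deposited values are raw read counts of the authors per miRNA entry, for perfect (100%) or partial (70 to 99%) matches. A read can be listed under several entries. The members and lists were chosen with earlier results of these data known.

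CPM (counts per 1000000) used the total of the distinct entries, 4710271 to 6152848 counts. Ratios have exact conditional (Clopper-Pearson) 95% intervals and ratios of ratios exact conditional odds ratio intervals, which cover counting error only. A call needed 1.5-fold and an interval without 1, over entries that averaged 10 or more counts. The named entries were all members, every entry with the seed of a main arm and the 5 entries closest in pattern. Seeds of the less abundant arms and the shifted seed of oar-miR-25 were not searched. The adapters of small RNA libraries ligate unevenly, so levels of different miRNAs are less comparable than 1 miRNA across libraries. Listed reads were assigned to the nearest member by edit distance. Chromosome numbers came from matching sheep entry names to RefSeq. Alternatives were edgeR 4.0.16 TMM, DESeq2 1.42.0 size factors, a total without miR-1, raw counts, other filters and folds, all duplicate entries and the perfect-match tables. Python 3.11.15, scipy 1.17.1 and R 4.3.3 were used, and the interval script was tested on simulated data. Sheets that only repeat rows of the merged tables were not used.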

Additional observations from a re-analysis of the deposited data

Results flagged for a closer look

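The partial matches of miR-20a-5p, which the merged tables do not add to miR-20a-5p, were higher in HF than in Cont by a ratio of 1.76 (1.60 to 1.95), from 582 and 1341 counts. They were singled out because they lie outside the main measurement of miR-20a-5p and passed the same 1.5-fold call. They are not independent of the other measures, since 53 of their 99 distinct reads in Cont, 69 of 160 in HF and 61 of 135 in HF-R are also listed under the merged miR-17-5p/miR-106a-5p entry. In HF-R they numbered 826, a ratio to Cont of 1.12 (1.00 to 1.24).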

How the results depend on the processing

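No paired analysis was possible because each condition has 1 pooled library. For HF/Cont the main count of 7 called measures became 3 with edgeR TMM and 3 with DESeq2 size factors, 1 at 2-fold and 2 of the 4 measures found in the perfect-match tables. For HF-R/HF the count of 7 became 3 with TMM and 3 with size factors (2 lower and 1 higher each), 2 with the total without miR-1, 0 at 2-fold and 2 in the perfect-match tables. The 2 lower members (15.4%) stood beside 13.7%, 11.1% and 14.3% of all entries called lower with TMM, size factors and the total without miR-1. For HF-R/Cont the count of 0 became 2 with raw counts and 1 without the interval. The 2 members (15.4%) stood beside 20.3% of all entries called higher with raw counts. For the counts at 2-fold, without the interval and in the perfect-match tables, no share of all entries is given. The other planned settings and 3 settings chosen after the data were seen stayed within 1.5 times the main counts, and no called ratio turned direction. Under TMM, 7 of the 13 HF/Cont ratios left their own counting interval, and 9 of 13 did so under size factors. The scalings differ by a common factor for all members, and why the libraries need different factors was not tested. The arm shares of miR-17, miR-106b and miR-18a were the same from the perfect-match tables. This is no separate check, since those tables hold the same 3p counts and no count for miR-17-5p or miR-106b-5p. With perfect and partial matches added, miR-93-5p was no longer called in HF-R/HF, at 0.682. Depth limits miR-18a-5p, miR-19a-3p, miR-106b-3p and all measures with a mean under 10 counts. Differences between sheep cannot be judged from pooled libraries.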
